A study of Drosophila melanogaster with 14 samples.

Results

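The secretin family (class B) of G protein-coupled receptors has 5 peptide receptor genes that were followed here in the Kenyon cells of the Drosophila mushroom body: Dh44-R1, Dh44-R2, Dh31-R, hec and Pdfr. They were taken by gene name from the 13931 genes of the gene table, all 5 were present, and their 12 transcripts were read from the transcript table. Class B receptors bind peptide hormones with a large extracellular domain and signal mainly through the stimulatory G protein, adenylyl cyclase and cyclic AMP (cAMP). In the mushroom body, cAMP made by the cyclase Rutabaga and removed by the phosphodiesterase Dunce is known for its part in olfactory memory. Dh44-R1 and Dh44-R2 are receptors of DH44, a peptide related to vertebrate corticotropin-releasing factor. Dh31-R is the receptor of DH31, a calcitonin-like peptide, hec (hector) encodes a calcitonin receptor-like protein known for its part in male courtship, and Pdfr is the receptor of PDF, the peptide of the clock neurons.

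Nuclear RNA of 7 Kenyon cell subtypes was sequenced by TAPIN-seq, in which nuclei carrying a tagged membrane protein are captured by tandem affinity purification. The subtypes were γd (driver line MB607B) and γm+d (MB131B) of the γ class, α′/β′m (MB418B) and α′/β′ap+m (MB370B) of the α′/β′ class, and α/βp (MB371B), α/βs (MB185B) and α/βc (MB594B) of the α/β class. Each subtype had 2 libraries, which the study describes as independent biological replicates, so that the classes had 4, 4 and 6 libraries. Every fly carried a split-GAL4 driver and a UAS transgene for UNC84 with 2 copies of GFP in an isogenic Canton-S derivative. The flies were 2 to 5 days old and were kept on food with antibiotics, and no other treatment is named. About 400 heads from males and females mixed were used for each library. The γm+d driver also labels γd cells and the α′/β′ap+m driver also labels α′/β′m cells, and according to the study the drivers label small numbers of neurons outside the mushroom body.

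Values are TPM, a unit scaled to transcript length and to a fixed total per library. Read numbers cannot be had from TPM, so the depth behind a value is unknown. The libraries differed in the number of genes above 0 TPM, with 5632 and 7601 in the γd replicates, 6534 in α/βp replicate 1 and between 8836 and 11359 in the others. Of 87 genes whose symbols begin with RpL or RpS, γd replicate 1 listed 44 at 0, α/βp replicate 1 had 32, γd replicate 2 had 15 and the other libraries at most 8, so a receptor at 0 in these libraries is given only as listed at 0. The Kenyon cell markers ey, toy, dac, rut and dnc were above 0 in all 14 libraries. Summed markers of photoreceptors, fat body and muscle were highest in α/βp replicate 2, at 4035 TPM, 5904 TPM and 365 TPM over 8, 5 and 4 genes.

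Each class was led by a different receptor gene. hec had the highest TPM of the 5 genes in all 4 γ libraries, Dh44-R2 in all 4 α′/β′ libraries and Dh44-R1 in all 6 α/β libraries. The 5 genes together reached 124.8, 297.5, 126.5 and 150.9 TPM in the γ libraries, 38.4, 58.9, 22.4 and 27.5 TPM in the α′/β′ libraries, and from 130.3 to 374.8 TPM in the α/β libraries. The α′/β′ libraries thus held the lowest sums, below every γ and every α/β library. hec made up 82.2 to 99.9% of the sum in γ libraries and Dh44-R1 57.7 to 77.7% of it in α/β libraries, while Dh44-R2 made up 54.4 to 79.7% in α′/β′ libraries. TPM are scaled by transcript length, so these shares compare levels per length.

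**Figure D1:**
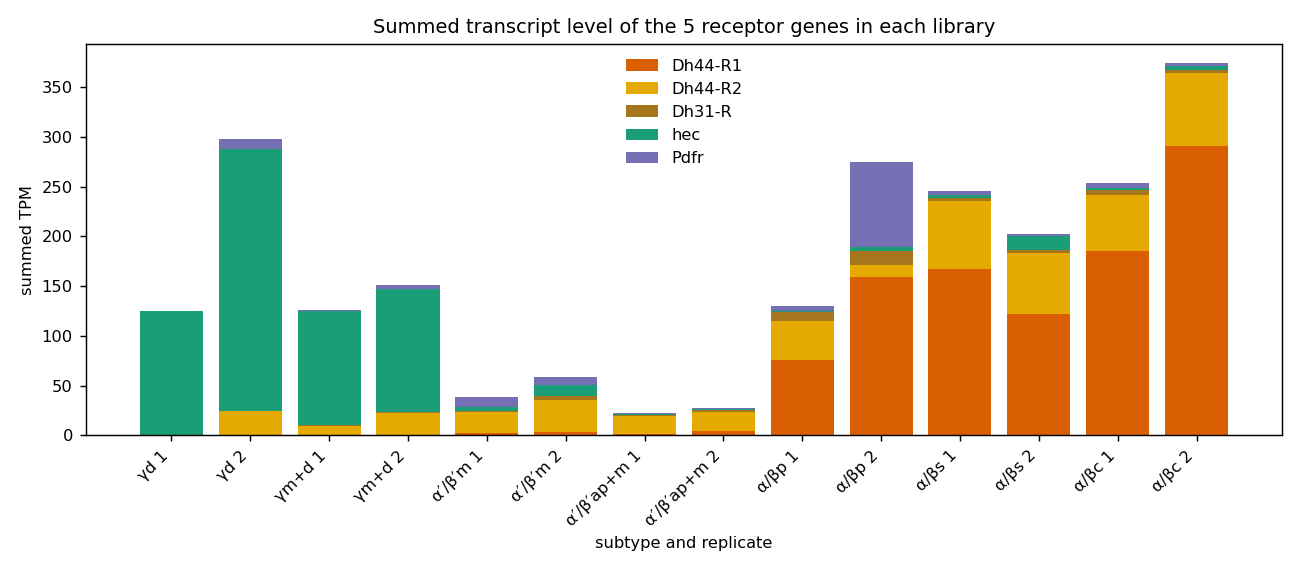
Summed TPM of the 5 receptor genes (y axis) in each of the 14 libraries (x axis, subtype and replicate), with 1 colour for each gene. The γ bars are mostly hec, the α/β bars mostly Dh44-R1, and the 4 α′/β′ bars are the lowest, between 22.4 and 58.9 TPM.

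Dh44-R1 (FBgn0033932, chromosome 2R, 14378097 to 14385359, plus strand, BDGP6) was an α/β gene. It was listed at 0 in both γd libraries and had 0.12 and 0.55 TPM in the γm+d libraries. It had 1.93 and 3.70 TPM in the α′/β′m libraries and 1.69 and 4.54 TPM in the α′/β′ap+m libraries. In α/β it had 75.3 and 158.8 TPM in α/βp, 167.2 and 122.1 TPM in α/βs, and 185.2 and 291.2 TPM in α/βc. The 3 classes did not overlap for this gene, and the lowest α/β library, α/βp replicate 1, stood far above the highest library of the other classes. The class means were 2.97 ± 1.38 TPM in α′/β′ (SD, n = 4) and 166.6 ± 72.4 TPM in α/β (SD, n = 6).

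Classes were compared in limma, using log2(TPM + 1) after quantile normalization, for the 8646 genes that reached 10 TPM in some library. Each library counted as a separate value of its class, although the 2 libraries of a subtype share a driver line. A gene was called when its Benjamini-Hochberg adjusted p was under 0.05 and its difference at least 2-fold. Folds are on the log2(TPM + 1) scale, which understates the change of genes at low levels. Dh44-R1 was depleted from γ relative to α/β, at -6.94 on the log2 scale (SE 0.49, limma adjusted p = 1.75e-07), and from α′/β′ relative to α/β, at -5.86 (SE 0.49, limma adjusted p = 4.666e-07). In size the first was number 2 of the 8646 differences and the second number 10. Between γ and α′/β′ the log2 fold change was -1.08, with a 95% confidence interval from -2.20 to 0.04 and an adjusted p of 0.3588, so the test made no call although the libraries of both classes did not overlap.

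hec (FBgn0030437, chromosome X, 12950436 to 12957462, minus strand) was a γ gene. It had 124.7 and 263.5 TPM in the γd libraries and 114.8 and 124.1 TPM in the γm+d libraries. It had 3.49 and 10.99 TPM in the α′/β′m libraries and 1.52 and 1.11 TPM in the α′/β′ap+m libraries. In the α/β libraries it lay between 0.92 TPM in α/βp replicate 1 and 14.1 TPM in α/βs replicate 2, with a median of 3.22 TPM. All γ libraries stood above all others, whereas the α′/β′ and α/β libraries overlapped. The mean was 156.8 ± 71.3 TPM in γ (SD, n = 4), 4.28 ± 4.59 TPM in α′/β′ (SD, n = 4) and 4.50 ± 4.83 TPM in α/β (SD, n = 6). hec was enriched in γ over α′/β′, at 5.78 on the log2 scale (SE 0.70, limma adjusted p = 8.585e-05), and over α/β, at 5.24 (SE 0.64, limma adjusted p = 6.55e-05). For α′/β′ over α/β the log2 fold change was -0.53, with an interval from -1.87 to 0.81.

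**Figure D2:**
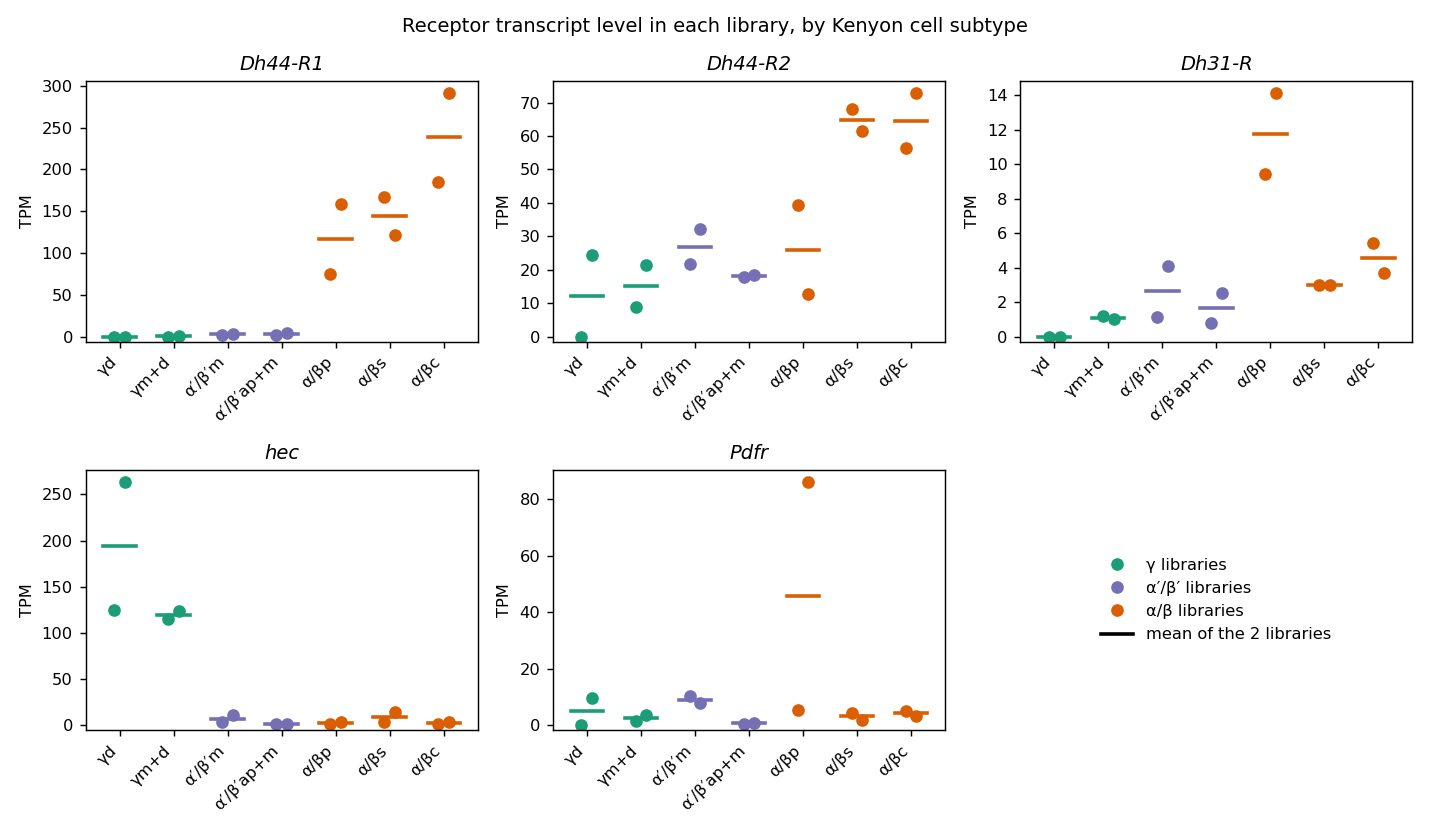
TPM (y axis, linear, a separate scale for each gene) of the 5 receptor genes in the 2 libraries of each subtype (x axis), with points for libraries, lines for the mean of both libraries and colours for the classes. Dh44-R1 is high only in the 6 α/β libraries and hec only in the 4 γ libraries, while the single high Pdfr point is α/βp replicate 2 at 86.2 TPM.

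Dh44-R2 (FBgn0033744, chromosome 2R, 12474424 to 12487986, plus strand) was the receptor of the family with the broadest signal, at 10 TPM or more in 12 of the 14 libraries. It was listed at 0 in γd replicate 1 and had 24.4 TPM in γd replicate 2, and it had 8.98 and 21.5 TPM in the γm+d libraries. It had 21.6 and 32.0 TPM in the α′/β′m libraries and 17.8 and 18.5 TPM in the α′/β′ap+m libraries. In α/β it had 39.2 and 12.6 TPM in α/βp, 68.2 and 61.6 TPM in α/βs, and 56.4 and 72.8 TPM in α/βc. The 4 α/βs and α/βc libraries were the highest of the 14, while α/βp replicate 2 lay below every α′/β′ library, so that all 3 classes overlapped. The mean was 22.5 ± 6.58 TPM in α′/β′ (SD, n = 4) and 51.8 ± 22.4 TPM in α/β (SD, n = 6). No class pair was called. The log2 fold change was -2.12 for γ over α/β (95% interval from -3.82 to -0.43, limma adjusted p = 0.1983), -1.35 for α′/β′ over α/β (interval from -3.05 to 0.34) and -0.77 for γ over α′/β′ (interval from -2.63 to 1.09). Without γd replicate 1, the library with the 0, these values were -1.04 for γ over α/β and 0.22 for γ over α′/β′.

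The 3′ part of Dh44-R2 overlaps genes of the opposite strand. Its exons share 551 bases with CG34234, which lies inside it, and 536 bases with fdl, a hexosaminidase gene. CG34234 had a median of 36.5 TPM in γ, 77.8 in α′/β′ and 51.7 in α/β, and fdl of 95.6, 146.6 and 131.4 TPM. The use of strand in library making and in quantification is not given in the sources used here, so reads of these genes and of Dh44-R2 in the shared bases cannot be told apart. Transcript Dh44-R2-RA ends at 12486743, before most of the shared bases, and was tested on its own after the values had been seen. It shares 1891 exonic bases with Dh44-R2-RB and has 209 of its own, so its level depends on how reads were divided between both transcripts and is not free of the overlap. Its log2 fold change was -1.97 for γ over α/β (SE 0.72, limma adjusted p = 0.245 over 16377 transcripts).

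Dh31-R (FBgn0052843, chromosome 2R, 13267798 to 13295927, minus strand) stood lowest of the 5, with a median of 2.75 TPM over the 14 libraries. It was listed at 0 in both γd libraries and had 1.18 and 1.02 TPM in the γm+d libraries. It had 1.16 and 4.12 TPM in the α′/β′m libraries and 0.77 and 2.51 TPM in the α′/β′ap+m libraries. In α/β it had 9.43 and 14.11 TPM in α/βp, 2.99 in each α/βs library, and 5.44 and 3.69 TPM in α/βc. All 6 α/β libraries lay above all 4 γ libraries, and the 2 α/βp libraries were the highest of all. The gene passed the filter on low values through α/βp replicate 2 alone. No class pair was called, with a log2 fold change of -1.81 for γ over α/β (interval from -3.15 to -0.48, limma adjusted p = 0.1575), -1.32 for α′/β′ over α/β (interval from -2.66 to 0.02) and -0.49 for γ over α′/β′ (interval from -1.96 to 0.98).

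Pdfr (FBgn0260753, chromosome X, 2552206 to 2578640, plus strand) was low except in α/βp replicate 2. It had 0.14 and 9.67 TPM in the γd libraries and 1.48 and 3.74 TPM in the γm+d libraries. It had 10.23 and 8.01 TPM in the α′/β′m libraries and 0.56 and 0.82 TPM in the α′/β′ap+m libraries. In α/β it had 5.39 and 86.2 TPM in α/βp, 4.42 and 1.99 TPM in α/βs, and 5.17 and 3.37 TPM in α/βc. The classes overlapped in every pair, and the 2 libraries of a subtype lay farthest apart in α/βp as a difference, at 80.8 TPM, and in γd as a ratio, at 69.1 against 16.0 in α/βp. No class pair was called, with a log2 fold change of 0.99 for γ over α′/β′ (interval from -1.18 to 3.16), -0.23 for γ over α/β (interval from -2.21 to 1.75) and -1.22 for α′/β′ over α/β (interval from -3.20 to 0.76). Quantile normalization raised the 0.14 TPM of γd replicate 1 to a log2 value of 2.85, since few genes are above 0 in that library.

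Some markers of cells outside the mushroom body were higher in the library with the high Pdfr value and others lower. In α/βp replicate 2 relative to α/βp replicate 1, 7 of 8 photoreceptor markers, 4 of 5 fat body markers and all 4 muscle markers were higher, with sums of 4035 against 2032 TPM, 5904 against 1584 TPM and 365 against 114 TPM. ninaE, the main photoreceptor opsin, had 3569 against 1439 TPM, while norpA, the phospholipase C of phototransduction, had 234 against 563 TPM. Glia markers were higher for 4 of 6 genes but summed to 80.5 against 112 TPM, and Gad1 and VGlut, of GABA and glutamate neurons, were both lower, with a sum of 126 against 217 TPM. Of the 6 clock neuron markers, Clk alone was higher, with 20.4 against 1.60 TPM, and Pdf and cry were at 0 in both libraries. The sum was 881.0 against 1686 TPM, most of it from Pdp1, with 781.0 against 1574 TPM. Pdp1 had at least 361 TPM in all 14 libraries, so this sum says little about clock neurons. tim had 40.97 against 60.5 TPM and vri 38.59 against 49.15 TPM. Monoamine neuron markers summed to 71.5 against 60.6 TPM, and neurosecretory markers to 26.4 against 0 TPM. Of the 6 Kenyon cell markers 4 were higher and 2 lower, with a sum of 5959 against 5028 TPM. Among them ey had 1207 against 631 TPM, prt 480.65 against 35.83 TPM and dnc 958.65 against 1644 TPM. The part of these cells in the Pdfr value was not tested, and fewer cells of a type cannot be told apart from less RNA per cell in such bulk libraries. Without α/βp replicate 2 the log2 fold change of Pdfr for γ over α/β was 0.41.

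Across the class pairs, 1 of the 5 genes was called between γ and α′/β′ (hec), 2 between γ and α/β (hec and Dh44-R1) and 1 between α′/β′ and α/β (Dh44-R1). Of all 8646 genes, 2.82% were called between γ and α′/β′, 3.1% between γ and α/β and 4.89% between α′/β′ and α/β. Their median log2 fold changes were -0.16, -0.11 and 0.07. Over the 5 receptors the median was in each pair the value of Dh31-R, at -0.49, -1.81 and -1.32. Dh31-R passed the filter through α/βp replicate 2 alone and Dh44-R1 through α/β libraries alone, so these medians do not describe a shift of the family. Libraries did not overlap for 2 of the 5 genes between γ and α′/β′, for 3 between γ and α/β and for 1 between α′/β′ and α/β. The same held for 9.85%, 4.31% and 7.48% of all genes. Without normalization beyond TPM the median of all genes was -0.88 for γ over α′/β′, -0.60 for γ over α/β and 0.28 for α′/β′ over α/β, and genes higher in γ made up 29.1% of those called against α′/β′ and 31.0% of those called against α/β, where the quantile-normalized values gave 49.6% and 46.3%. The hec and Dh44-R1 calls kept their direction and their side of the threshold in all 25 alternatives of each pair, with at most an adjusted p of 0.0187.

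**Figure D3:**
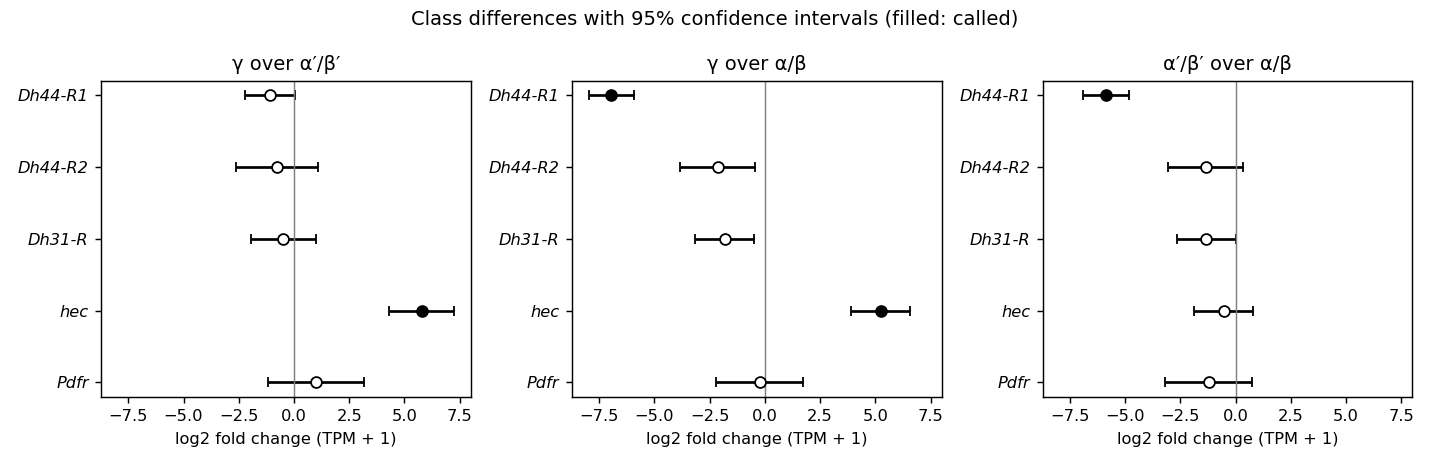
Log2 fold change of TPM + 1 (x axis) for the 5 receptor genes in the 3 class pairs, with 95% confidence intervals as bars and filled points for calls. hec stands at 5.78 and 5.24 in the pairs with γ, Dh44-R1 at -6.94 and -5.86 in the pairs with α/β, and the other points are open.

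Subtypes of different classes were set apart by the same receptors. Over the 21 subtype pairs, Dh44-R1 was called in 12, every pair of an α/β subtype with a subtype of another class. Outside the pairs with γd, in which it is listed at 0, its differences in size ranged from 5.33 to 7.31 on the log2 scale. hec was called in 10 pairs, every pair of a γ subtype with a subtype of another class, and Dh31-R, Pdfr and Dh44-R2 in 2, 1 and 0. Over all genes and all 21 pairs, 4.42% of tests were called. Dh31-R was called for γd over α/βp (limma adjusted p = 0.02091) and for α′/β′ap+m over α/βp, with a log2 fold change of -2.81 (SE 0.78, limma adjusted p = 0.04958), lower in the first subtype of each pair. Pdfr was called for α′/β′ap+m over α/βp, at -4.52 (SE 0.94, limma adjusted p = 0.01149). Leaving out a library of either subtype leaves it with 1, whose spread is assumed to be like that of the other groups. In that setting the Pdfr value was -3.37 without α/βp replicate 2 (SE 0.97, limma adjusted p = 0.04056), where α/βp rests on a library with 32 of 87 ribosomal protein genes at 0. It was -4.43 without α′/β′ap+m replicate 1 (SE 1.25, limma adjusted p = 0.1078) and -4.58 without α′/β′ap+m replicate 2 (SE 1.25, limma adjusted p = 0.09809), past the threshold no longer but of like size. Without quantile normalization the call was lost as well. Both calls of Dh31-R were lost without α/βp replicate 1 (adjusted p = 0.05822 for γd and 0.1964 for α′/β′ap+m), and the gene could not be tested without α/βp replicate 2. The call for α′/β′ap+m held in 4 of 21 alternatives and that for γd in 19. Dh31-R entered these tests only through its level in α/βp replicate 2, and with no filter on low values the adjusted p was 0.08029 for α′/β′ap+m and 0.03866 for γd. For Dh44-R2, 2 pairs had an unadjusted p under 0.05 in limma.

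Within a class, none of the 5 receptors was called in the 5 subtype pairs. In limma, 5 of these 25 tests had an unadjusted p under 0.05, namely Dh31-R and Pdfr in α/βp over α/βs and over α/βc, and Pdfr in α′/β′m over α′/β′ap+m. Of all genes, 15.7%, 19.1% and 11.1% had an unadjusted p under 0.05 in these 3 pairs. For Dh31-R the log2 fold change was 1.98 over α/βs (SE 0.78, limma adjusted p = 0.2417) and 1.82 over α/βc (SE 0.78, adjusted p = 0.233). For Pdfr in α′/β′m, with 9.12 ± 1.57 TPM against 0.69 ± 0.18 TPM in α′/β′ap+m (SD, n = 2 each), it was 2.32 (SE 0.94, limma adjusted p = 0.3657). The background of calls was 1.16% for γd over γm+d, 1.1% for α′/β′m over α′/β′ap+m, 1.99% for α/βp over α/βs, 3.17% for α/βp over α/βc and 0.0% for α/βs over α/βc. In that last pair 356 of the 8646 genes had an unadjusted p under 0.05.

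The order of the subtypes by mean TPM differed between the genes. For Dh44-R1 it ran from α/βc over α/βs and α/βp to α′/β′ap+m, α′/β′m, γm+d and γd, and the only neighbours with a call were α/βp and α′/β′ap+m. For hec it ran from γd over γm+d to α/βs, α′/β′m, α/βc, α/βp and α′/β′ap+m, with a call only between γm+d and α/βs, at 4.28 on the log2 scale (SE 0.85, limma adjusted p = 0.01869). For Dh44-R2, α/βs and α/βc shared the top with 64.9 and 64.6 TPM, followed by α′/β′m, α/βp, α′/β′ap+m, γm+d and γd, and no neighbours were called. Dh31-R ran from α/βp over α/βc, α/βs, α′/β′m, α′/β′ap+m and γm+d to γd, and Pdfr from α/βp over α′/β′m, γd, α/βc, α/βs and γm+d to α′/β′ap+m, with no call between neighbours.

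The transcripts were largely those of the whole genes. Dh44-R1 has a single transcript, with a coding sequence of 504 codons. hec-RA and hec-RB encode proteins of the same 486 codons and differ in the length of the annotated 3′UTR, 868 against 190 bases, and in the γ libraries the whole hec signal was assigned to hec-RA. hec-RB was above 0 in 5 libraries outside γ and reached at most 1.45 TPM. Dh31-R-RA and Dh31-R-RC have the same exons and identical TPM in 14 of 14 libraries, and Dh31-R-RB has 15 more exonic bases, so the division of the Dh31-R signal among them is uncertain.

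Only Dh44-R2 and Pdfr had more than 1 transcript with at least 10 TPM in a library. Dh44-R2-RA and Dh44-R2-RB differ in their last exons and encode 475 and 476 codons. Dh44-R2-RA made up 36.6% of the summed gene in γ, 48.5% in α′/β′ and 41.4% in α/β. Its level did not keep a fixed ratio to Dh44-R2-RB between libraries. RA and RB had 1.26 and 23.1 TPM in γd replicate 2 and 8.98 and 0 TPM in γm+d replicate 1. They had 3.86 and 35.4 TPM in α/βp replicate 1 and 12.6 and 0 TPM in α/βp replicate 2. Pdfr-RA and Pdfr-RD, with 669 and 724 codons, held 49.5 and 36.7 TPM in α/βp replicate 2, while Pdfr-RB and Pdfr-RC did not pass 1.52 TPM in any library. In a limma diffSplice test of isoform usage, neither gene was called between any 2 classes (adjusted p from 0.8347 to 1, unadjusted p from 0.5325 to 0.9822), where 1.12%, 1.67% and 0.929% of 3660 genes were called for γ over α′/β′, γ over α/β and α′/β′ over α/β.

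**Figure D4:**
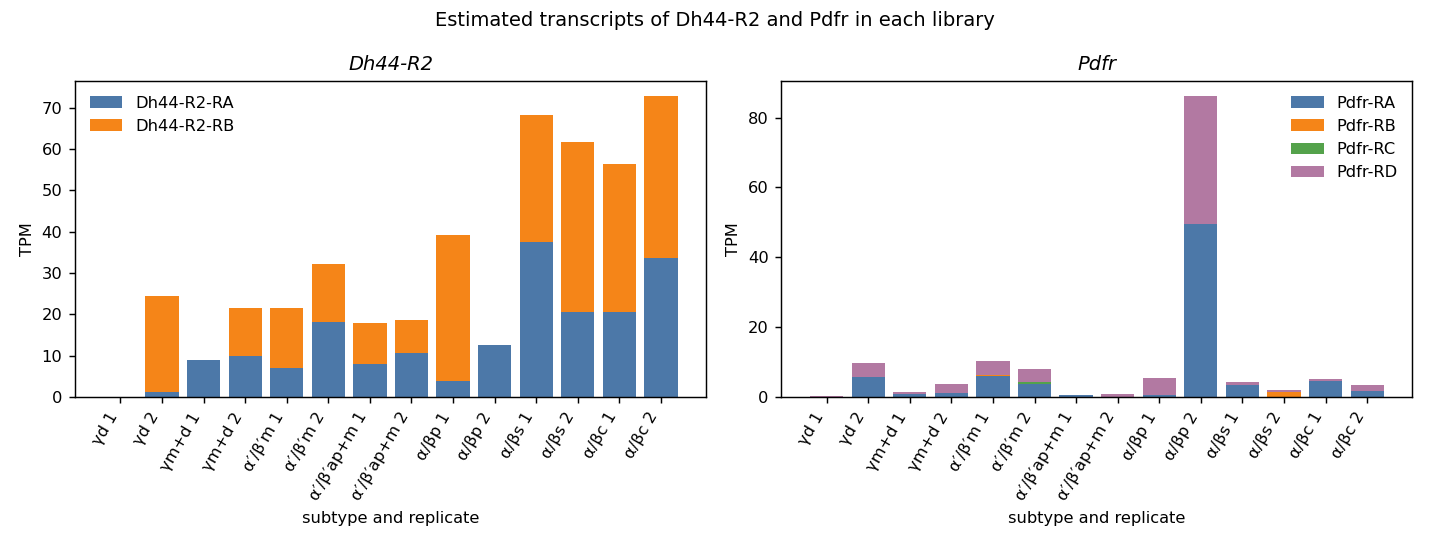
Estimated TPM (y axis) of the transcripts of Dh44-R2 and Pdfr, stacked by transcript, in each library (x axis, subtype and replicate). The division of Dh44-R2 between RA and RB differs between replicates of γm+d and of α/βp, and both are at 0 in γd replicate 1. The tall Pdfr bar holds 49.5 TPM of RA and 36.7 TPM of RD.

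The peptide ligands were low in the same nuclei. Pdf was listed at 0 in all 14 libraries. Dh44 lay between 0 TPM in α′/β′ap+m replicate 2 and 14.7 TPM in α′/β′m replicate 1, and Dh31 between 0.21 TPM in α/βp replicate 1 and 10.3 TPM in α/βp replicate 2. Dh44 had a mean of 2.40 ± 1.47 TPM in γ (SD, n = 4), 14.7, 2.37, 3.61 and 0 TPM in the α′/β′ libraries, and a mean of 4.28 ± 3.63 TPM in α/β (SD, n = 6). Both Dh44 and Dh31 passed the filter through a single library, and neither was called in a class pair (limma, 0 also at an unadjusted p under 0.05).

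The receptors were ranked among 35 peptide receptor genes, the 5 and 30 of the rhodopsin family. Leucine-rich repeat hormone receptor genes such as rk, a receptor gene for bursicon, were not among the 35. In α/βs, rk had 142.7 and 170.25 TPM, where Dh44-R1 had 167.2 and 122.1 TPM, so the ranks hold for this list only. By subtype mean, Dh44-R1 ranked 1 of the 35 in all 3 α/β subtypes, and hec ranked 1 in γd and 2 in γm+d. In γd replicate 1 hec had 124.71 TPM, below SIFaR of the rhodopsin family, whose γd libraries had 129.93 and 147.35 TPM. In γd replicate 2 hec had 263.51 TPM, above both. In α/βp, Dh44-R1 ranked 1 in replicate 1 and 2 in replicate 2. Dh44-R2 ranked between 2 and 7 in every subtype by its mean. Its single libraries ranked 4 and 12 in α/βp replicates 1 and 2, and its γd mean joins 0 and 24.4 TPM. Pdfr ranked 6 in α′/β′m and 4 in α/βp, where its rank was 17 in replicate 1 with 5.39 TPM and 3 in replicate 2 with 86.2 TPM, and Dh31-R no higher than 12. Of the 30 rhodopsin-family genes, 17 passed the filter. Between γ and α′/β′, 3 of these were called higher and 0 lower, between γ and α/β 2 higher and 0 lower, and between α′/β′ and α/β 0 higher and 1 lower. Their median log2 fold changes were 0.99, -0.54 and -0.76. TkR86C, a tachykinin receptor gene, was enriched in γ like hec, with 74.9 ± 23.0 TPM in γ (SD, n = 4) and 10.8 ± 8.48 TPM in α′/β′ (SD, n = 4), at log2 fold changes of 3.78 over α′/β′ (SE 0.87, limma adjusted p = 0.02054) and 3.66 over α/β (SE 0.80, limma adjusted p = 0.01243). SIFaR, the SIFamide receptor gene, was the highest of the 30 with a mean of 90.6 TPM and was enriched in γ over α/β at 2.07 (SE 0.37, limma adjusted p = 0.002143).

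Of the 18 other genes of the wider secretin superfamily, which encode adhesion and Methuselah receptors, 8 passed the filter. Between γ and α′/β′, 0 were called higher and 1 lower, and none was called in the other pairs (limma, 1 in each at an unadjusted p under 0.05). mthl13 was depleted from γ relative to α′/β′, with 17.5 ± 10.9 TPM in γ and 95.9 ± 31.7 TPM in α′/β′ (SD, n = 4 each), at a log2 fold change of -1.79 (SE 0.43, limma adjusted p = 0.02575). Cirl, the latrophilin gene, was the highest with a mean of 724 TPM, and its log2 fold changes in the 3 pairs lay between -0.30 and -0.14. Their medians were 0.21, 0.22 and -0.16.

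The genes that carry the cAMP signal were expressed in all classes. All 20 matched genes of the pathway list passed the filter, with mean levels from 8.97 TPM for Ac13E to 4816 TPM for Pka-R2. Galphas, the stimulatory G protein α subunit, had 280 ± 113 TPM in γ, 179 ± 29.0 TPM in α′/β′ (SD, n = 4 each) and 155 ± 74.6 TPM in α/β (SD, n = 6). rut and dnc had means of 1055 and 1295 TPM over the 14 libraries. Between γ and α′/β′, 0 of the 20 were called higher and 1 lower, between γ and α/β 1 higher and 0 lower, and between α′/β′ and α/β 2 higher and 1 lower, with medians of 0.21, 0.49 and 0.07. Genes under 2-fold were not called at any adjusted p. Among them, Pka-R2 had 0.98 for γ over α′/β′ (limma adjusted p = 0.0005054) and -0.60 for α′/β′ over α/β (limma adjusted p = 0.00915). For dnc the value was 0.88 for γ over α/β (limma adjusted p = 0.007703). Epac, a guanine nucleotide exchange factor that binds cAMP, had 86.1 ± 29.0 TPM in γ, 656.5 ± 129.7 TPM in α′/β′ (SD, n = 4 each) and 39.2 ± 19.5 TPM in α/β (SD, n = 6). It was called in all 3 pairs, at -2.76 for γ over α′/β′ (SE 0.33, limma adjusted p = 8.715e-05), 1.58 for γ over α/β (SE 0.31, adjusted p = 0.004776) and 4.34 for α′/β′ over α/β (SE 0.31, adjusted p = 9.933e-08). In α′/β′ relative to α/β, rg, which encodes an anchor protein of protein kinase A, was higher by 1.14 (SE 0.22, limma adjusted p = 0.003121), and Akap200, the gene of another such anchor, had -1.60 (SE 0.43, limma adjusted p = 0.03358).

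The 3 genes most alike in pattern to each receptor were found by Pearson's r over the 14 libraries, among 8645 other genes, as a description. The libraries share class structure and the number of genes captured, so they are not independent. For Dh44-R1 these were crb, the apical polarity gene crumbs (r = 0.995), CG31475 (0.979) and rk, a leucine-rich repeat receptor gene for the hormone bursicon (0.971). crb had a mean of 4.05 TPM in γ, 23.2 in α′/β′ and 425 in α/β. rk had 9.66 and 57.69 TPM in α/βp replicates 1 and 2 and between 142.7 and 221.4 TPM in the α/βs and α/βc libraries. On the log2 scale its range within α/β was wider than that of Dh44-R1. For hec they were dlp, a glypican gene (0.943), ab, the transcription factor gene abrupt (0.923), and CG5897 (0.921), and dlp had a mean of 172 TPM in γ, 7.69 in α′/β′ and 3.70 in α/β.

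**Figure D5:**
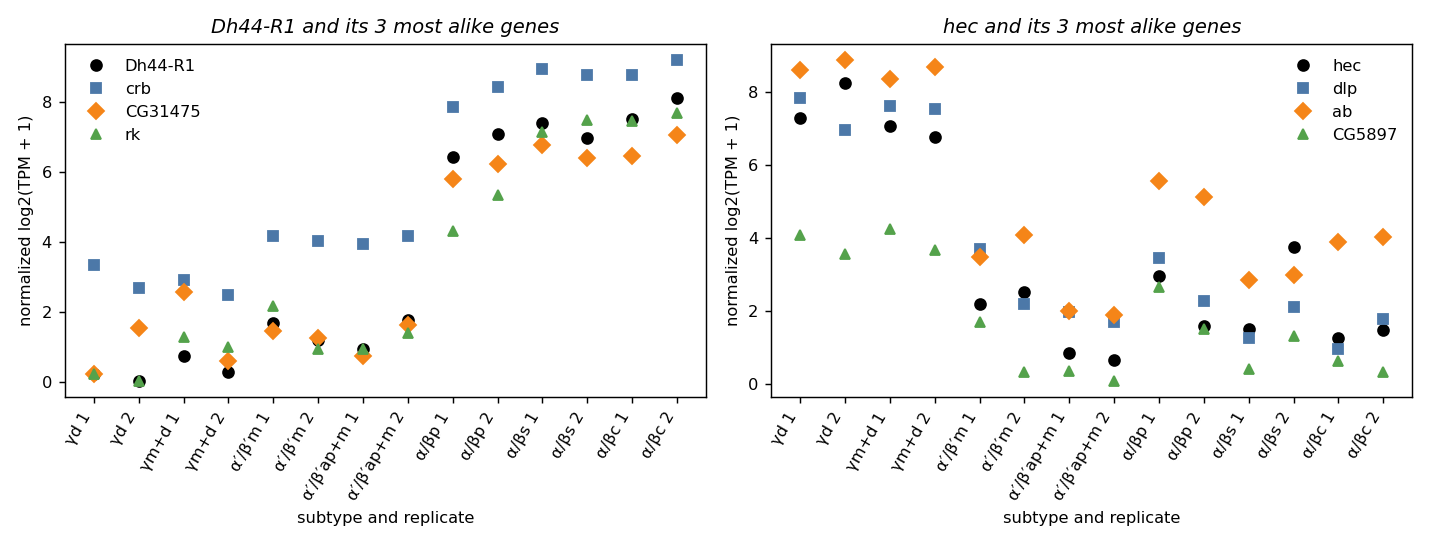
Quantile-normalized log2(TPM + 1) (y axis) of Dh44-R1 and hec, each with its 3 most alike genes, in the 14 libraries (x axis, subtype and replicate). Points of Dh44-R1, crb, CG31475 and rk are high in the 6 α/β libraries and those of hec, dlp, ab and CG5897 in the 4 γ libraries.

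The genes most alike to Dh44-R2 were Sgt (0.932), CG12229 (0.884) and Snr1 (0.882), each listed at 0 in γd replicate 1 like Dh44-R2 itself. Those of Dh31-R were CG5987 (0.925), bwa (0.923) and CG17549 (0.921), of which bwa had 92.6 and 96.7 TPM in the α/βp libraries. Those of Pdfr were CG34371 (0.944), CG12290 (0.917) and CG13124 (0.909), which had 138.8, 32.6 and 162.8 TPM in α/βp replicate 2, their highest library as for Pdfr. Among the 5 receptors, r was highest between Dh44-R1 and Dh31-R (0.685) and lowest between Dh44-R1 and hec (-0.567).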

How the data were processed

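The authors quantified trimmed reads with kallisto (version not given in the sources used here) on Ensembl release 91 transcripts of BDGP6. Entries for spike-ins, the reporter and ribosomal RNA were left out by the authors before TPM were computed anew. The deposited tables hold TPM for 30484 transcripts and 13931 genes in 14 libraries, and 0 per-sample columns had no sample. TPM keep no counts, so the authors' voom test of counts was not repeated, and precision is given as the SD between libraries. Libraries were grouped by the subtype in their labels.

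TPM were transformed as log2(TPM + 1), quantile-normalized and tested with limma 3.58.1 in R 4.3.3 (eBayes with a trend, 1 mean per class or per subtype) over genes that reached a minimum of 10 TPM in some library. Two-sided p-values were adjusted for each pair with the Benjamini-Hochberg procedure. Isoform usage was tested with diffSplice on transcripts with the same minimum. The limma comparisons of γ over α/β and of γd over α/βs, and isoform usage for γ over α/β, were tried on simulated data. The other steps were not. Positions and transcript structures come from the Ensembl release 115 annotation of the same assembly. No genome sequence was used here.

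The genes named are the 5 receptors, their ligands, genes of the lists, the 3 genes most alike to each receptor and genes whose exons overlap a receptor. The plan was to name 2 to 4 genes of each list (highest mean or called). It was not kept to, since other list genes were named too and some called ones were not. The members and lists were chosen with earlier results of these data known. Of the 21 pathway genes, CRTC was not matched. Marker lists were those of Kenyon cells, glia, clock neurons, photoreceptors, fat body, muscle, GABA and glutamate neurons, monoamine neurons and neurosecretory cells. Alternatives were median-ratio scaling or TPM with no further normalization, pseudocounts of 0.1 and 5, no filter, the minimum in 2 libraries, eBayes without the trend, a replicate block, each library left out, γd replicate 1 and α/βp replicate 1 left out together, class contrasts from the subtype model and 1 value per subtype. For isoform usage the alternative was at least 10 TPM in 4 libraries, and for likeness Spearman's rho and r over 7 subtype means. Dh44-R2-RA alone was added after seeing the data. The authors' class means were not used. Figures were drawn in Python 3.11.15 with matplotlib 3.10.9.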

Additional observations from a re-analysis of the deposited data

Results flagged for a closer look

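Among 21 groups of libraries of the receptor and ligand genes, 3 held a library far from the others of its class in TPM. The rule sets apart about 1 in 20 groups if all libraries of a class follow the same normal distribution. A class holds different subtypes and TPM are skewed, so the number to be had by chance is unknown here. For hec in γ this was γd replicate 2 at 263.51 TPM, the highest of the 4 γ libraries. For hec in α/β it was α/βs replicate 2 at 14.11 TPM, the highest of 6. For Pdfr in α/β it was α/βp replicate 2 at 86.18 TPM, the highest of 6.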

How the results depend on the processing

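The calls of hec and Dh44-R1 between classes kept their direction and their side of the threshold in every alternative run. The count of subtype pairs called stayed at 12 for Dh44-R1. For hec it stayed within 1.5 times of 10 but fell below 10 in some alternatives, so not every pair kept its call. Results of the other receptors, none of them called between classes, moved more, and the causes were not tested unless stated. The number of genes called for γ over α′/β′, γ over α/β and α′/β′ over α/β was 562, 506 and 692 with class contrasts from the subtype model, which takes the differences between subtypes out of the residual spread. It was 56, 57 and 160 with 1 value per subtype, which leaves fewer values and takes the subtype as the unit. In that setting the limma adjusted p was 0.00296 for Dh44-R1 in γ over α/β and 0.0187 for hec in γ over α′/β′. For Pdfr, γ over α′/β′ was -0.019 with median-ratio scaling and -0.25 with TPM as deposited. With no normalization Dh44-R1 had -0.057 for α′/β′m over α′/β′ap+m and hec -0.33 for α/βp over α/βc, which was -0.16 with median-ratio scaling. Without γd replicate 1 and α/βp replicate 1 together, Dh44-R2 had 0.21 for γ over α′/β′, 1.34 for γd over γm+d, -2.80 for α/βp over α/βs and -2.64 for α/βp over α/βc, the last 2 past the threshold, and Pdfr had 4.13 and 4.06 for α/βp over α/βs and α/βc, both past the threshold. In that setting γd and α/βp rest on 1 library each, and where a library is left out its subtype rests on 1, assumed to vary like the other groups.

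With single libraries left out, the log2 fold change ranged from -1.45 to 0.22 for Dh44-R2 in γ over α′/β′ (positive without γd replicate 1), from -0.76 to 0.41 for Pdfr in γ over α/β (positive without γm+d replicate 1, γm+d replicate 2 or α/βp replicate 2), from -0.31 to 0.49 for Dh44-R1 in α′/β′m over α′/β′ap+m, from -3.58 to 1.41 for Dh44-R2 in γd over γm+d (past the threshold without γd replicate 2, where γd rests on replicate 1 alone, in which Dh44-R2 is listed at 0, and positive without γd replicate 1), from -0.56 to 0.24 for Dh31-R and from -0.47 to 0.35 for Pdfr in α/βs over α/βc, and from -1.49 to 0.76 for hec in α/βp over α/βs. The number of the 21 subtype pairs called ranged from 0 to 6 for Dh44-R2 (6 without γd replicate 2, from the same single library), from 0 to 2 for Dh31-R and from 0 to 3 for Pdfr (3 without α/βp replicate 1). For Dh31-R it was 1 with a pseudocount of 0.1, no normalization beyond TPM, median-ratio scaling, no filter or the replicate block, 4 with a pseudocount of 5 or no variance trend, and 0 without γd replicate 1 and α/βp replicate 1 together. For Pdfr it was 2 with either pseudocount, 0 with median-ratio scaling or with no further normalization, 3 with no variance trend and 5 without these 2 libraries together, and for Dh44-R2 it was 9 without them. Dh31-R could not be fitted with 10 TPM required in 2 libraries, and isoform usage of Pdfr could not be tested with 10 TPM required in 4 libraries.

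No label says that libraries with the same number share a batch or day, so the replicate numbers were not taken as pairs. Deviations of same-numbered libraries from their subtype means correlated at -0.059 to 0.208 over the 21 subtype pairs, 3 of them above 0.1, and for 6 of 7 subtypes the best match was of the same number. With the replicate block 239, 269 and 403 genes were called in the 3 class pairs, against 244, 268 and 423 without it, and the Dh31-R call for α′/β′ap+m over α/βp was lost (limma adjusted p = 0.05552).

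Of the 3 genes most alike to each receptor, Spearman's rho shared 2 for Dh44-R1, 0 for Dh44-R2, 1 for Dh31-R, 0 for hec and 1 for Pdfr, and r over the 7 subtype means shared 2 for Dh44-R1 and 0 for Dh44-R2, Dh31-R, hec and Pdfr. The unknown depth limits every value near 0, most of all in γd replicate 1 and α/βp replicate 1.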
